A study of Mus musculus with 35 samples.

Results

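The 10 genes described here encode the cyclins and kinases that drive the meiotic divisions of mouse male germ cells, together with a phosphatase that switches them on. They are the A-type cyclins Ccna1 and Ccna2, the B-type cyclins Ccnb1 and Ccnb2, the cyclin-dependent kinases Cdk1 and Cdk2, the phosphatase Cdc25c, the Polo kinase Plk1 and the Aurora kinases Aurka and Aurkc. They were taken by symbol from the 24411 gene rows of the count tables, and each symbol had 1 row in the tables of spermatocytes, round spermatids and chromatoid bodies. All 10 passed the filter on low counts in every comparison.

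The study deleted Smg6, which encodes an endonuclease of nonsense-mediated mRNA decay, in male germ cells. Adult Smg6-cKO mice carried loxP sites around exon 9 of Smg6 and Cre recombinase under the Neurogenin 3 (Ngn3) promoter, with both alleles floxed, and Cre-negative littermates with 1 or both alleles floxed served as controls (CTRL). All mice were of a mixed C57Bl/6J and SV129 background. Pachytene spermatocytes (Spc) and round spermatids (RS) were enriched on BSA gradients, and polyadenylated RNA was sequenced in 3 CTRL and 3 cKO libraries per fraction. The design text gives both testes of 1 mouse as the source of each sample, while the study's methods describe isolation from a larger number of testes, so a sample may hold more than 1 mouse. Chromatoid bodies (CBs), the RNA granules of round spermatids, were isolated with an antibody to DDX4 from 2 to 4 pooled mice per sample, and their total RNA was sequenced without removal of ribosomal RNA in 4 CTRL and 3 cKO libraries. A fraction enriched by sedimentation holds other cells as well, and in such bulk samples fewer cells of a type cannot be told apart from less RNA per cell.

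Gene counts per library ran from 36419197 to 47355837 in Spc and RS and from 2705277 to 12103906 in CBs. Counts over the whole Smg6 gene were 109 to 172 CPM (counts scaled to a common library total with TMM, the trimmed mean of M values) in CTRL Spc and 182 to 189 in cKO Spc (log2 fold change 0.22, adjusted p = 0.36), and 143 to 235 and 189.5 to 203 in CTRL and cKO RS. The deleted part is a single exon, so a count over the whole gene does not check the genotype. From Spc to RS in CTRL, 8 of 12 spermatocyte markers were lower and 0 higher, and 11 of 11 round spermatid markers were higher. CTRL Spc also held late spermatid markers, at a sum of 3733 to 7659 CPM, and Piwil1 alone, a spermatocyte marker, was 836 to 1057 CPM there. The summed level of 12 spermatocyte markers was 2551 to 2927 CPM in CTRL Spc and 1135 to 1213 in CTRL RS, and that of 11 round spermatid markers was 1115 to 1821 and 5148 to 5423. In cKO RS the round spermatid markers summed to 1510.2 to 1801 CPM, with 11 of 11 lower than in CTRL. A list of 10 late spermatid markers, of which 10 were lower in cKO RS, summed to 1994 to 2048 CPM there against 30381 to 40279 in CTRL RS. Macrophage markers were higher in cKO RS in 10 of 10 cases, Leydig markers in 6 of 6 tested, Sertoli markers in 7 of 8, erythroid markers in 4 of 5 and spermatogonial markers in 5 of 8 (1 was lower), and no marker was at 0 in all libraries of a group.

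Entry into M phase is driven by CDK1 bound to a B-type or A-type cyclin. The complex is held inactive by phosphorylation until CDC25 phosphatases remove the inhibitory phosphates, and Polo-like and Aurora kinases then act on centrosomes, chromosomes and the spindle. In the testis CCNA1 is the germ cell A-type cyclin needed for the meiotic divisions, CDK2 holds telomeres to the nuclear envelope in meiotic prophase, and AURKC is an Aurora kinase largely of germ cells. Round spermatids have completed both divisions. The comparison of RS with Spc thus sets a fraction enriched in cells past the divisions against one enriched in cells before them. It gives the scaled level of each mRNA in RS relative to Spc. The comparison of cKO with CTRL shows how each one differs when Smg6 is deleted.

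Promoter windows of 300 bases (250 before and 50 after the start, RefSeq, GRCm38.p6) were at hand for 8 of the members: Ccna1, Ccnb1, Ccnb2, Cdk1, Cdk2, Plk1, Aurka and Aurkc. They are shown here for Ccnb1, Ccnb2 and Plk1, whose transcripts were lower in cKO RS, and for Cdk2, which had the highest fold change there. Capitals mark the motifs searched on both strands: CCAAT (the CCAAT box bound by NF-Y), TTTGAA and TTCGAA (the CHR element of cell cycle promoters), TGACG (a CRE core) and TAACNG (a MYB site), none of which overlapped another in these 4 windows. The sequences run 5′ to 3′ on the strand of the gene.
Ccnb1 (chr13:100786437-100786736, minus strand): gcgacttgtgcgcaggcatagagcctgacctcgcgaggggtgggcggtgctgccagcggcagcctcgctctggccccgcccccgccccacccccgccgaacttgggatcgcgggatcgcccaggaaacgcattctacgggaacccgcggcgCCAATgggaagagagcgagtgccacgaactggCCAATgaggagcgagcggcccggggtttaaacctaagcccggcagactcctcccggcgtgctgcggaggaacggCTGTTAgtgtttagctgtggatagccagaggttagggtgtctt
Ccnb2 (chr9:70421505-70421804, minus strand): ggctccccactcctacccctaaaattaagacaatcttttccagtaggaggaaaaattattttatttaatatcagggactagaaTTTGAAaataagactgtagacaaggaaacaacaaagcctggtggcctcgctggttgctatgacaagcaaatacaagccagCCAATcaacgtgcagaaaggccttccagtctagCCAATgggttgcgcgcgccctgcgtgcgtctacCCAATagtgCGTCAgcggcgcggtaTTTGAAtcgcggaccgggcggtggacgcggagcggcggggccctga
Plk1 (chr7:122159185-122159484, plus strand): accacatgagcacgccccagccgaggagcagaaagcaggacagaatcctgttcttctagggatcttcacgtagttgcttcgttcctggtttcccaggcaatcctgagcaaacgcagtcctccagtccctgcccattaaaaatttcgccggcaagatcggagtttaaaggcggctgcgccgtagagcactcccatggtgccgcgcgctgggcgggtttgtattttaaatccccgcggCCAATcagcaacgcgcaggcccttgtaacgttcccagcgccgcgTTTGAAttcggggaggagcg
Cdk2 (chr10:128705002-128705301, minus strand): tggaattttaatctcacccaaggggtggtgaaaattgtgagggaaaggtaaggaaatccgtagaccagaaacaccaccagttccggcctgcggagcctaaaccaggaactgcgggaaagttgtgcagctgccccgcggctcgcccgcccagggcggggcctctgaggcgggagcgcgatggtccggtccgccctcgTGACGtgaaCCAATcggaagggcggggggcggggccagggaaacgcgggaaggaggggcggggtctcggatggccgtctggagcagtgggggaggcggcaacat

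CCAAT was present in 8 of the 8 member windows and in 37.4% of all 32851 windows. Ccnb2 had 3 copies on the gene's strand, at bases 164, 197 and 230 of the window, and Ccnb1 had 2, at bases 152 and 184. Plk1 and Cdk2 had 1 each, at bases 237 and 206. TTTGAA was present in 4 of the 8 windows (Ccnb2, Cdk1, Plk1 and Aurka) and in 17.9% of all windows. TGACG was found in Ccnb2 and Cdk2 (20.8% of all windows) and TAACNG in Ccnb1 and Aurka (23.3%), while TTCGAA was in 0 of the 8 (1.56% of all windows). These are matches of letters, given as a description.

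Levels are given below as CPM of gene counts, scaled with TMM, which sets libraries to a common level for most genes. The 12 Spc and RS libraries share 1 scale and the CB libraries have another. Whether groups overlap is given below for the members as a description and was not counted over all genes. The headers give the RS gene columns another trimming tag than the Spc gene columns, without saying what differed, so in gene counts the stages also differ in that tag. To compare genes with each other, CPM were divided by the length in kilobases of the longest protein-coding transcript of each gene in the deposited transcript tables. In CTRL Spc the order was Aurka (median 119 CPM per kb, range 115 to 119, n = 3), Ccna1 (111, 107 to 114), Ccnb2 (94.8, 87.5 to 104), Cdk2 (48.2, 38.7 to 48.7), Plk1 (48.1, 46.1 to 55.2), Aurkc (38.1), Ccnb1 (36.9), Cdk1 (18.0), Cdc25c (8.17) and Ccna2 (3.28). The ranges of Cdk2 and Plk1 and those of Aurkc and Ccnb1 overlapped, and the other neighbours in this order did not. In CTRL RS the highest was Ccnb2 (154, 154 to 157), then Ccna1 (140.1), Aurka (119.7), Plk1 (87.8), Ccnb1 (69.6), Aurkc (31.4), Cdc25c (25.7), Cdk1 (6.94), Cdk2 (6.25) and Ccna2 (4.49), and only Cdk1 and Cdk2 overlapped. Cdk2 thus had rank 4 in CTRL Spc and rank 9 in CTRL RS on this per-length scale. In cKO RS the highest was Aurka (155, 151 to 162), before Ccna1 (123) and Ccnb2 (109), and Cdk2 stood at 18.2.

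**Figure D1:**
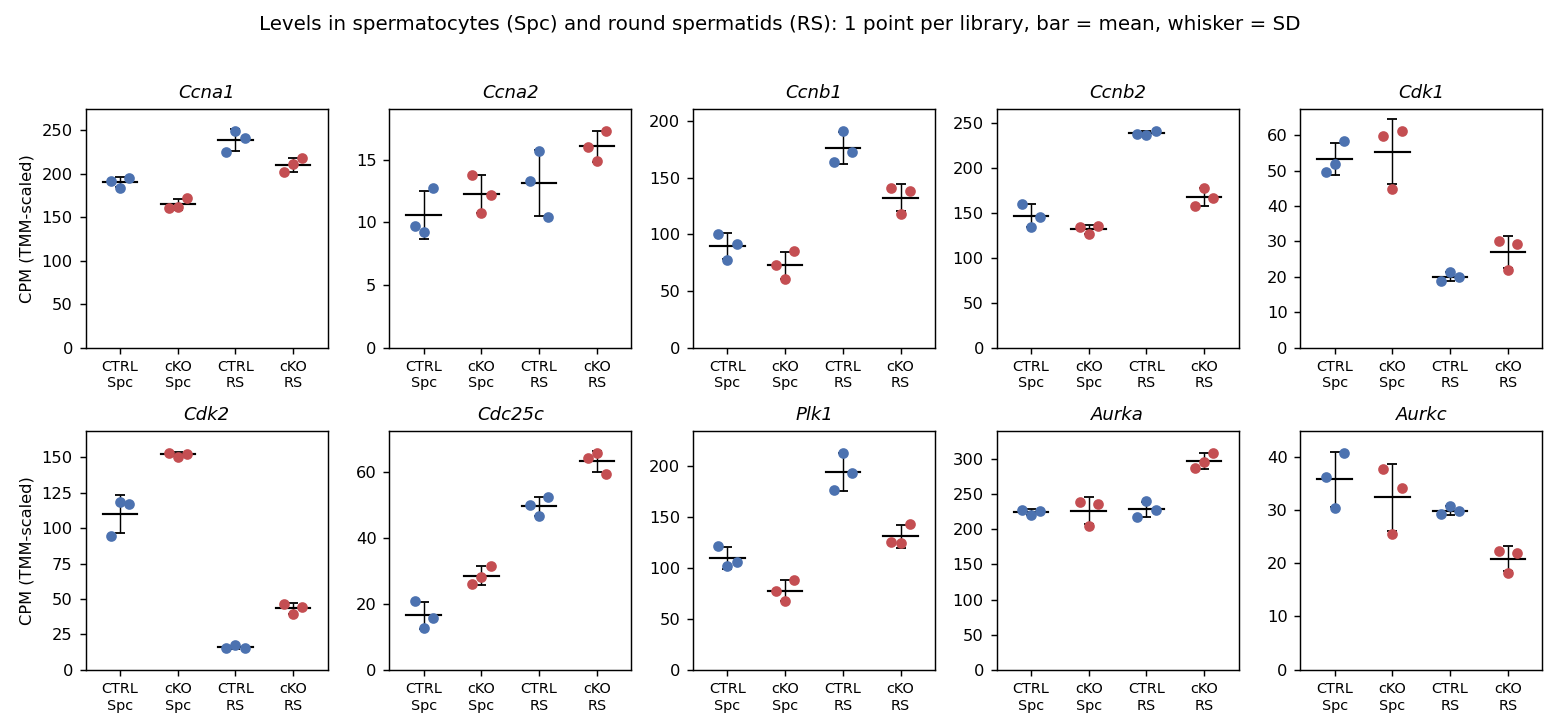
Level of each gene in the Spc and RS libraries, in TMM-scaled CPM from 0; each point is 1 library, the bar is the mean and the whisker the SD of 3 libraries (blue CTRL, red cKO). The CTRL RS points of Cdk2 lie between 15.2 and 17.2 CPM and the cKO RS points between 39.2 and 46.7.

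Each comparison used edgeR's quasi-likelihood test over all genes tested, with Benjamini-Hochberg adjustment, and a gene is called higher or lower at an adjusted p of at most 0.05. In RS, 4 of the 10 members were higher in cKO (Cdk1, Cdk2, Cdc25c and Aurka) and 5 were lower (Ccna1, Ccnb1, Ccnb2, Plk1 and Aurkc), where 38.4% of all 17492 genes were called higher and 34.3% lower. In Spc, 2 were higher (Cdk2 and Cdc25c) and 2 lower (Ccna1 and Plk1) against 14.0% and 14.1% of 17321 genes. In CBs 1 was lower (Ccnb1) and 0 were higher, against 18.4% and 18.1% of 14051 genes, and DESeq2 gave the same 1 and 0 there. At an unadjusted p under 0.05 edgeR gave 2 lower members in CBs (Aurka was the other) and 0 higher. No share of all genes was counted at that threshold, here or below. The median log2 fold change of the members was -0.18 in Spc, 0.07 in RS and -0.29 in CBs, and that of all genes tested was -0.01, 0.11 and 0.07. With the second threshold of the study, which also asks for 1.5 on the log2 scale in either direction, 0 members were called in any of the 3 (8.52%, 26.4% and 11.3% of all genes), and Cdk2 in RS at 1.46 came nearest. Under library size only Cdk2 in RS was 2.08 (adjusted p = 2.3e-06) and passed that threshold.

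**Figure D2:**
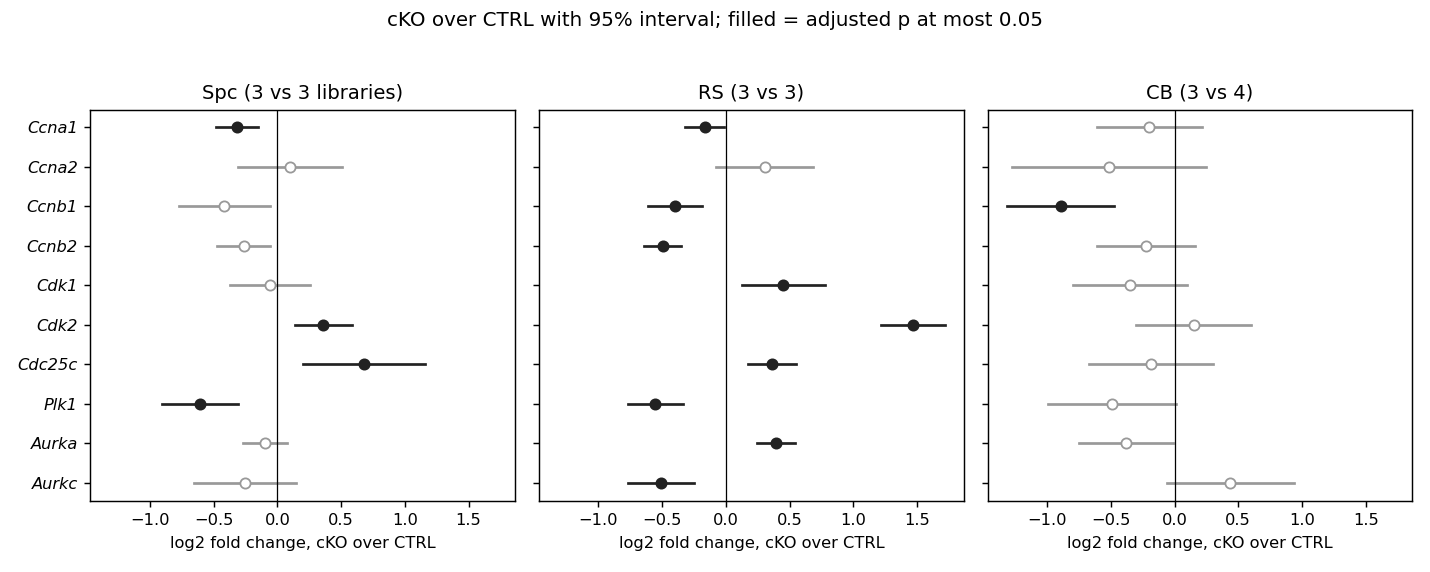
Log2 fold change of cKO over CTRL with its 95% interval for each gene in Spc, RS and CBs; filled points have an adjusted p of at most 0.05 and open points do not. The RS panel holds 9 filled points, from -0.56 for Plk1 to 1.46 for Cdk2, and the CB panel holds 1.

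The scaling bears on the RS comparison. TMM factors were 0.716 to 0.767 in CTRL RS and 1.13 to 1.18 in cKO RS, and scaling by library size alone moved the median of all genes in RS from 0.11 to 0.73. Every member moved with it, and 6 were then called higher in RS (Ccna1, Ccna2, Cdk1, Cdk2, Cdc25c and Aurka) and 0 lower, where 58.5% of all genes were called higher and 18.5% lower. Ccna1 turned to 0.45 (adjusted p = 0.00034), and Ccnb1 (0.22), Ccnb2 (0.12), Plk1 (0.06) and Aurkc (0.11) turned to values above 0 that were not called. The direction of these 5 genes in RS thus depended on the scaling. Measured from the median of all genes, a change of scaling cancels by construction, and on that measure Ccnb2 lay at -0.61 under TMM and -0.60 under DESeq2 and library size, while Plk1 lay at -0.66 and Cdk2 at 1.36 under all 3. "Lower in cKO RS" therefore means lower under TMM, or lower than the median change, for these 5 genes throughout, and is no statement on RNA per cell.

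**Figure D3:**
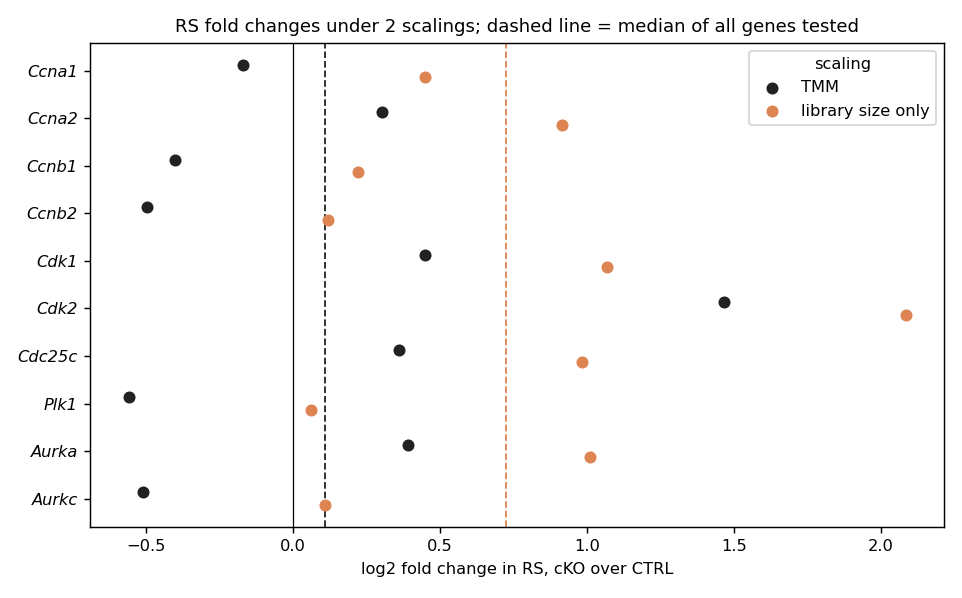
Log2 fold change of cKO over CTRL in RS under TMM (black) and under library size only (orange); the dashed lines are the medians of all genes tested, 0.11 and 0.73. Both sets of points keep the same distance from their own dashed line, as a change of scaling moves all genes together.

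Cdk2 (chr10:128697939-128705031, minus strand) had the largest differences of the 10 genes in RS. Its level was 94.2, 118 and 117 CPM in CTRL Spc and 153, 151 and 152 in cKO Spc. In RS it was 15.2, 17.2 and 15.2 CPM in CTRL and 46.7, 39.2 and 44.2 in cKO. The groups did not overlap in either fraction, and every RS library was below every Spc library. Cdk2 was higher in cKO RS at 1.46 on the log2 scale (SE 0.11, adjusted p = 1.0e-05, 2.76-fold) and in cKO Spc with 0.36 (SE 0.09, adjusted p = 0.031). The Spc call was lost in 4 of the 6 fits that left out 1 library, with adjusted p of 0.025 to 0.077. From Spc to RS it fell by 2.92 on the log2 scale in CTRL (SE 0.12, adjusted p = 2.4e-05) and by 1.84 in cKO (SE 0.08, adjusted p = 0.00011). The interaction of genotype and stage, tested over the 12 libraries, was 0.98 (SE 0.15, 95% interval 0.66 to 1.30, adjusted p = 0.00074), so the fall was smaller in cKO.

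Spermatocyte markers moved in the same direction in RS. The summed level of the 12 markers was 1398 to 1531 CPM in cKO RS and 1135 to 1213 in CTRL RS, with 8 of 12 higher, 2 lower and a median log2 fold change of 0.76. Their part in the Cdk2 difference was not tested.

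Cdk1 (chr10:69335146-69352938, minus strand), the M-phase kinase, was 49.7 to 58.4 CPM in CTRL Spc and 44.8 to 61.3 in cKO Spc, ranges that overlapped (log2 fold change -0.06, SE 0.13, adjusted p = 0.77). It was 18.7, 21.2 and 20.02 CPM in CTRL RS and 30.0, 21.9 and 29.3 in cKO RS, with the lowest cKO library just above the highest CTRL library. The difference in RS was 0.45 (SE 0.14, adjusted p = 0.020), and it was not called without CTRL RS library 1 (0.39, adjusted p = 0.072) or library 3 (0.44, adjusted p = 0.057). Cdk1 fell from Spc to RS by 1.55 in CTRL (adjusted p = 5.1e-05) and by 1.06 in cKO (adjusted p = 0.0020). Its interaction was not called under TMM (0.38, SE 0.21, 95% interval -0.07 to 0.84, adjusted p = 0.15). The interaction was called under library size only (1.09, adjusted p = 0.0019) and with the replicate number as a block.

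The B-type cyclins bind CDK1 at entry into M phase. Ccnb1 (chr13:100778650-100786570, minus strand) was 100.3, 77.8 and 91.9 CPM in CTRL Spc and 72.6, 60.7 and 85.0 in cKO Spc. In RS it was 164, 192 and 173 CPM in CTRL and 141, 119 and 138 in cKO. The groups overlapped in Spc and not in RS. The log2 fold change in RS was -0.40 (SE 0.09, adjusted p = 0.0049), and in Spc it was -0.42 with a wider error (SE 0.15, adjusted p = 0.078). Ccnb1 rose from Spc to RS by 0.84 on the log2 scale in CTRL (SE 0.12, adjusted p = 0.00063) and by 0.84 in cKO (SE 0.14, adjusted p = 0.0024). Under library size only the rise was 0.39 in CTRL and 0.98 in cKO, and the interaction was called (0.60, adjusted p = 0.029).

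Ccnb2 (chr9:70407692-70421547, minus strand) was 160.3, 135 and 146 CPM in CTRL Spc and 135, 126 and 135 in cKO Spc, and the groups overlapped at their edges. In RS the 3 CTRL libraries lay at 238, 237 and 242 CPM and the cKO libraries at 158, 178 and 167. Its log2 fold change was -0.50 in RS (SE 0.06, adjusted p = 0.00021) and -0.26 in Spc (SE 0.09, adjusted p = 0.064). The rise from Spc to RS was 0.57 in CTRL (adjusted p = 0.00082) and 0.32 in cKO (adjusted p = 0.014). The interaction was -0.36 (SE 0.11, adjusted p = 0.021) under TMM and 0.35 (adjusted p = 0.010) under library size only. It was not called without CTRL Spc library 2 (adjusted p = 0.052), cKO RS library 1 (0.057) or cKO RS library 3 (0.076).

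The A-type cyclins differed in level. Ccna1 (chr3:55045469-55055501, minus strand), the germ cell form, was 184 to 196 CPM in CTRL Spc and 161 to 173 in cKO Spc, and 225 to 249.8 in CTRL RS and 202 to 219 in cKO RS. The groups did not overlap in either fraction, though the differences were small. The log2 fold change was -0.31 in Spc (SE 0.07, adjusted p = 0.019) and -0.17 in RS (SE 0.07, adjusted p = 0.047). The Spc call was lost in 3 of the 6 fits that left out 1 Spc library, with adjusted p from 0.034 to 0.072. The RS call was lost in 5 of the 6 fits that left out 1 RS library, with values of -0.22 to -0.07 and adjusted p from 0.031 to 0.43. From Spc to RS the change was 0.33 in cKO (adjusted p = 0.0094) and 0.19 in CTRL, where it was not called with edgeR (adjusted p = 0.051) and was with DESeq2 (0.26, adjusted p = 0.0065).

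Ccna2 (chr3:36564865-36572150, minus strand), the A-type cyclin of somatic and mitotic cells, was the lowest of the 10 per length in all 6 groups. It was 9.74, 9.23 and 12.8 CPM in CTRL Spc, 13.8, 10.8 and 12.2 in cKO Spc, 13.3, 15.7 and 10.4 in CTRL RS and 16.0, 14.9 and 17.3 in cKO RS. The genotypes overlapped in both fractions. With edgeR and TMM no difference was called for Ccna2 in any of the 6 comparisons, with adjusted p from 0.066 (RS against Spc in cKO, log2 fold change 0.37, SE 0.14) to 0.81 (interaction). The value for RS against Spc in cKO was called with DESeq2 (0.40, adjusted p = 0.040), with no filter (0.43, adjusted p = 0.048), with transcript sums (0.43, adjusted p = 0.044) and under library size only (0.51, adjusted p = 0.022). Library size only also called Ccna2 higher in cKO RS (0.92, adjusted p = 0.0019) and its interaction (0.79, adjusted p = 0.030).

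Cdc25c, the phosphatase that activates CDK1, was higher in both cKO fractions. It was 20.9, 12.8 and 15.9 CPM in CTRL Spc and 26.02, 28.1 and 31.7 in cKO Spc, and 49.96, 46.7 and 52.4 in CTRL RS and 64.4, 66.0 and 59.6 in cKO RS. The groups did not overlap in Spc or in RS. The log2 fold change was 0.68 in Spc (SE 0.20, adjusted p = 0.044) and 0.36 in RS (SE 0.08, adjusted p = 0.0042). The Spc call was lost in 5 of the 6 fits that left out 1 library, with adjusted p of 0.011 to 0.13. Cdc25c had the largest rise of the members from Spc to RS, 1.45 in CTRL (SE 0.18, adjusted p = 0.00035) and 1.12 in cKO (SE 0.11, adjusted p = 0.00040), and the interaction was not called (-0.44, 95% interval -0.91 to 0.02, adjusted p = 0.11).

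Plk1 (chr7:122159439-122169873, plus strand), the Polo kinase of centrosome maturation and spindle assembly, was lower in both cKO fractions. It was 122, 102 and 106 CPM in CTRL Spc and 77.8, 67.2 and 88.4 in cKO Spc, and 176, 213 and 193 in CTRL RS and 125, 124 and 144 in cKO RS. The groups were apart in both. The log2 fold change was -0.61 in Spc (SE 0.13, adjusted p = 0.016) and -0.56 in RS (SE 0.09, adjusted p = 0.00092). It rose from Spc to RS by 0.69 in CTRL (adjusted p = 0.0011) and 0.73 in cKO (adjusted p = 0.0027), and the interaction was -0.07 (95% interval -0.43 to 0.29, adjusted p = 0.74). Under library size only the change was 0.24 in CTRL (adjusted p = 0.068) and 0.87 in cKO, and the interaction was called (0.63, adjusted p = 0.011).

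The Aurora kinases went opposite ways in RS. Aurka (chr2:172356190-172370535, minus strand), the spindle pole kinase, was 228, 219.8 and 227 CPM in CTRL Spc, 239, 205 and 236 in cKO Spc, 218, 239.9 and 228 in CTRL RS and 288, 295 and 309 in cKO RS. The 3 cKO RS libraries were above all the others, while CTRL Spc, cKO Spc and CTRL RS overlapped each other. Aurka was higher in cKO RS (log2 fold change 0.39, SE 0.06, adjusted p = 0.00074) and did not pass the test in Spc (-0.10, SE 0.07, adjusted p = 0.36). From Spc to RS it rose by 0.37 in cKO (adjusted p = 0.0079) and gave -0.11 in CTRL (SE 0.07, adjusted p = 0.23), and the interaction was 0.37 (SE 0.10, 95% interval 0.14 to 0.59, adjusted p = 0.014).

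Aurkc (chr7:6995300-7003091, plus strand), the germ cell Aurora kinase, was 36.1, 30.3 and 40.7 CPM in CTRL Spc and 37.6, 25.4 and 34.1 in cKO Spc. In RS it was 29.2, 30.8 and 29.8 CPM in CTRL and 22.4, 18.1 and 22.0 in cKO. The groups overlapped in Spc (log2 fold change -0.25, SE 0.17, adjusted p = 0.29) and were apart in RS (-0.51, SE 0.11, adjusted p = 0.0037). With transcript counts summed per gene in place of the gene counts, which in RS also changes the trimming tag of the headers, the RS difference was -0.37 and was not called (adjusted p = 0.082). Aurkc fell from Spc to RS by 0.66 in cKO (adjusted p = 0.013) and by 0.39 in CTRL (adjusted p = 0.021), and the CTRL call was lost without CTRL Spc library 3 (adjusted p = 0.066), CTRL RS library 1 (0.072) or CTRL RS library 3 (0.070). The cKO call was lost without cKO Spc library 1 (-0.50, adjusted p = 0.070).

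Over all members, RS against Spc in CTRL gave 4 higher (Ccnb1, Ccnb2, Cdc25c and Plk1) and 3 lower (Cdk1, Cdk2 and Aurkc), where 36.2% of 17046 genes were higher and 39.7% lower. In cKO it gave 6 higher, with Ccna1 and Aurka added, and the same 3 genes lower, where 18.9% of 17709 genes were higher and 26.4% lower. With the threshold of 1.5 on the log2 scale added, Cdk1 and Cdk2 were called in CTRL and Cdk2 in cKO (34.0% and 7.06% of all genes). Library size alone moved the median of all genes in CTRL from -0.08 to -0.54 and left 2 members higher (Ccnb1 and Cdc25c) and 5 lower (25.3% and 53.3% of all genes), as Ccna1 turned to -0.26 (adjusted p = 0.018) and Aurka stood at -0.56 (adjusted p = 0.00037). Measured from the median of all genes, Cdk2 lay at -2.85 and Cdc25c at 1.53 in CTRL under TMM. In transcript counts summed per gene, whose headers carry the same trimming tag in both stages, 4 members were higher and 3 lower in CTRL (36.3% and 38.5% of all genes there) and 7 and 3 in cKO (20.9% and 22.8%). In these sums the interaction was called in 3, 2 more positive (Cdk2 1.05 and Aurka 0.43) and 1 more negative (Ccnb2 -0.29), where 17.2% and 18.4% of all genes were called. The interaction was called for 3 members, 2 with more positive values in RS (Cdk2 and Aurka) and 1 more negative (Ccnb2), where 19.0% and 24.1% of 18171 genes were called. It was not called for Aurkc (-0.38, adjusted p = 0.17), Ccnb1 (-0.10, adjusted p = 0.67) or Ccna1 (0.03, adjusted p = 0.83). Under library size only the interaction was more positive in 8 members and more negative in 0 (44.5% and 3.00% of all genes). Ccna1 (0.73, adjusted p = 0.00026) and Ccnb1 (0.60, adjusted p = 0.029) were among the 8, and Aurkc was not (0.33, adjusted p = 0.25).

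**Figure D4:**
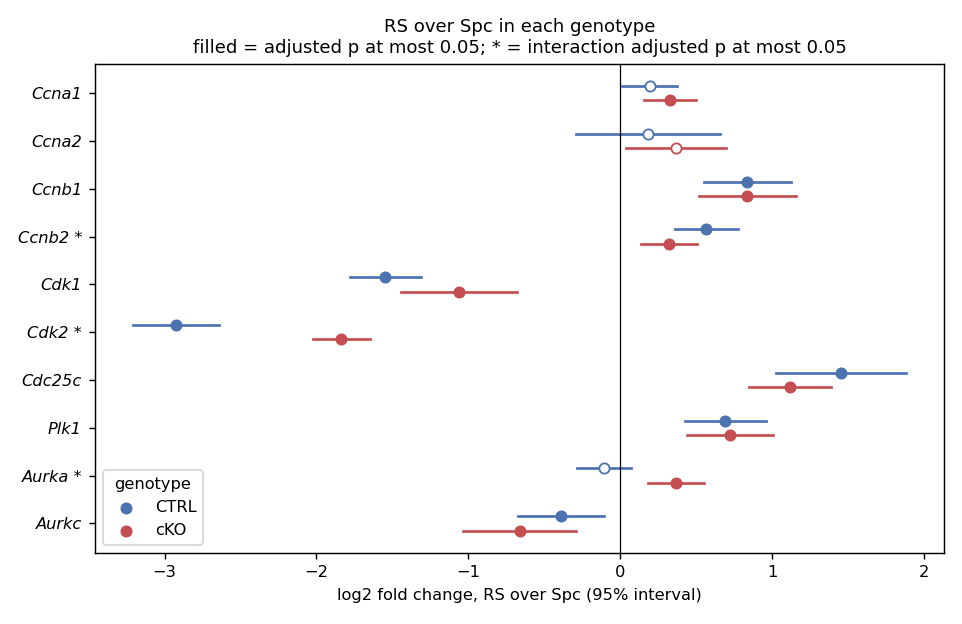
Log2 fold change of RS over Spc with its 95% interval in CTRL (blue) and cKO (red) for each gene; filled points have an adjusted p of at most 0.05 and stars mark genes with a called interaction. Cdk2 lies at -2.92 in CTRL and -1.84 in cKO, and Aurka at -0.11 and 0.37.

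CBs are granules rich in RNA-binding proteins, and the counts behind the members were lower there, from 14 to 923 per library. In the 4 CTRL CB libraries Aurka (median 33.2 CPM per kb) and Ccna1 (31.5) had the highest levels per length and overlapped, Ccnb2 (22.6) was the third, and Ccna2 (2.50) the lowest. Ccnb1 was 28.9, 27.9, 25.6 and 28.8 CPM in CTRL CBs and 14.0, 18.4 and 13.2 in cKO CBs, and the groups did not overlap. Its log2 fold change was -0.89 (SE 0.20, adjusted p = 0.0035), with -0.79 to -1.03 and adjusted p of 0.0043 to 0.019 as each library was left out. Without the 2 CTRL libraries whose columns are named in another style, it was -0.95 (adjusted p = 0.019). Ccnb1 was also lower in cKO RS (-0.40), the cells that hold CBs.

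Aurkc also had CB groups that did not overlap, at 6.56, 8.77, 8.73 and 8.23 CPM in CTRL and 11.1, 11.97 and 10 in cKO. It did not pass the test (log2 fold change 0.44, SE 0.23, adjusted p = 0.16). Its value in RS was -0.51 under TMM and 0.11 under library size only, and that in CBs 0.44 and 0.29. Plk1 was 36.0, 32.4, 25.3 and 25.6 CPM in CTRL CBs and 16.7, 17.5 and 28.8 in cKO CBs, and did not pass (-0.49, SE 0.23, adjusted p = 0.12). Without the cKO CB library of 5980996 gene counts, the highest of the 3, Plk1 was called at -0.80 (adjusted p = 0.024). Cdk2, so different in RS, was 26.2 to 47.0 CPM in cKO CBs and 29.7 to 38.2 in CTRL CBs (0.15, SE 0.21, 95% interval -0.30 to 0.60, adjusted p = 0.61). The groups overlapped and no difference was called for the other 6 members in CBs. Their log2 fold changes were -0.35 for Cdk1 (adjusted p = 0.21), -0.22 for Ccnb2 (0.35), -0.20 for Ccna1 (0.44), -0.18 for Cdc25c (0.55), -0.38 for Aurka (0.095) and -0.52 for Ccna2 (0.27). As each library was left out, they ran from -0.57 to -0.26 for Cdk1, -0.32 to -0.18 for Ccnb2 and -0.34 to -0.028 for Ccna1. The ranges were -0.49 to 0.0055 for Cdc25c, -0.47 to -0.33 for Aurka and -0.95 to -0.16 for Ccna2, and none of these fits gave a call. In cKO CBs 10 of 10 late spermatid markers and 10 of 11 round spermatid markers were lower, and 6 of 6 Leydig, 3 of 5 macrophage, 3 of 6 spermatogonial and 2 of 6 Sertoli markers tested were higher. Of 12 spermatocyte markers 1 was lower there, and the 1 erythroid marker tested was not called. Their part in the CB values was not tested.

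**Figure D5:**
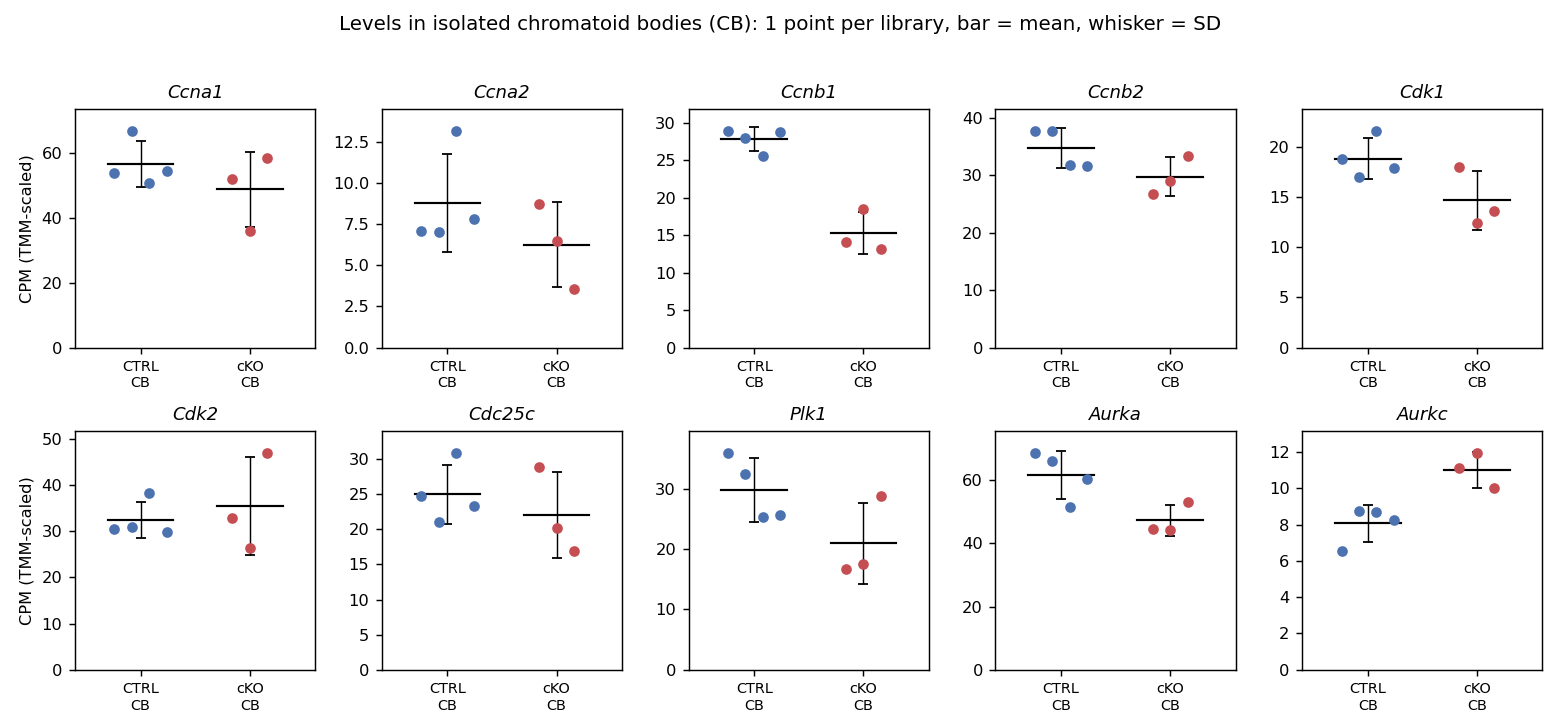
Level of each gene in the CB libraries, in TMM-scaled CPM from 0; each point is 1 library, the bar is the mean and the whisker the SD of 4 CTRL (blue) or 3 cKO (red) libraries. The Ccnb1 points of cKO lie at 13.2 to 18.4 CPM and those of CTRL at 25.6 to 28.9.

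The calls in Spc changed as single libraries were left out, while the fold changes of the 4 called genes kept their direction. Without cKO Spc library 1, 0 of the 10 members were called, and Plk1 (-0.57, adjusted p = 0.071), Ccna1 (-0.26, adjusted p = 0.072), Cdk2 (0.39, adjusted p = 0.072) and Cdc25c (0.78, adjusted p = 0.080) had fold changes near those with all libraries. Without cKO Spc library 2 or CTRL Spc library 3 there was 1 call, and without cKO Spc library 3 there were 2. Late spermatid markers summed to 3733 to 7659 CPM in CTRL Spc and 430.2 to 1437 in cKO Spc (10 of 10 lower), Sertoli markers to 269 to 723 and 158 to 229.8 (6 of 8 lower), and macrophage markers to 41.1 to 44.3 and 54.3 to 85.7 (8 of 10 higher, 1 lower). Of the other lists, 1 of 4 erythroid markers tested and 3 of 11 round spermatid markers were lower in cKO Spc, and 3 of 7 Leydig and 2 of 12 spermatocyte markers were higher. With DESeq2 9 of the 11 round spermatid markers were lower and 7 of the 7 Leydig markers higher in Spc, and edgeR gave the same 9 and 7 at an unadjusted p under 0.05. Of 8 spermatogonial markers 0 were called in Spc with edgeR, while 3 were higher at an unadjusted p under 0.05 and 3 with DESeq2. The part of these in the members' values in Spc was not tested.

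Partners of these kinases were counted in 3 lists. Of 16 partners and regulators of CDKs, 10 were higher and 3 lower in cKO RS (median log2 fold change 0.67, and 0.11 for all genes), where 38.4% and 34.3% of all genes were called. In cKO Spc 1 was higher and 2 lower (median -0.01), where 14.0% and 14.1% of all genes were, and in CBs 1 was higher and 1 lower of 15 tested (18.1% and 18.4%). Under library size only the RS counts were 15 higher and 1 lower (Wee1), where 58.5% and 18.5% of all genes were called. In RS, Wee1, which phosphorylates and inhibits CDK1, was lower (-0.92, adjusted p = 4.2e-05), as was Hspa2, a chaperone that CDK1 needs in spermatocytes (-0.44, adjusted p = 0.00059). Ccnb3, a meiotic B-type cyclin, was higher (1.53, adjusted p = 0.0013), as was the CDK inhibitor Cdkn1b (1.79, adjusted p = 0.0057). Wee1 was also lower in Spc (-0.57, adjusted p = 0.013) and in CBs (-0.56, adjusted p = 0.032), where it was not called under library size only (-0.69, adjusted p = 0.071). Cdkn1b was lower in cKO Spc (-1.70, adjusted p = 0.032), with an interaction of 3.37 (adjusted p = 0.0029), at levels of only 0.537 to 5.93 CPM in these 12 libraries. Sertoli markers likewise were lower in cKO Spc and higher in cKO RS, with an interaction called in 8 of 8, and their part in the Cdkn1b values was not tested.

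Of 12 partners of the Aurora and Polo kinases, 7 were higher and 1 was lower in cKO RS (median 0.62; 38.4% and 34.3% of all genes), and under library size only 12 were higher and 0 lower (58.5% and 18.5%). Aurkb, the Aurora kinase of the chromosomal passenger complex, was higher (1.02, adjusted p = 0.00042), and Incenp, the scaffold of that complex, was lower by a small amount (-0.19, adjusted p = 0.043). Plk3 was higher as well (1.74, adjusted p = 0.0016), at low levels of 0.776 to 1.61 CPM in CTRL RS and 3.25 to 4.41 in cKO RS. Somatic markers were also higher in cKO RS, and their part in the partners' values was not tested. In Spc 0 of the 12 were called with edgeR (14.0% of all genes higher and 14.1% lower) and 0 with DESeq2, and 1 was higher and 1 lower at an unadjusted p under 0.05. In CBs 2 of 10 tested were higher and 0 lower (18.1% and 18.4% of all genes), Plk4 (1.26, adjusted p = 0.012) and Incenp (0.63, adjusted p = 0.016), while 3 were higher and 1 lower at an unadjusted p under 0.05 and 2 and 1 with DESeq2. Plk4 was 60.2, 106 and 256 CPM in cKO CBs and 55.8 to 63.6 in CTRL CBs, so the groups overlapped and 1 cKO library was far above the others. Incenp was not called under library size only (0.52, adjusted p = 0.15). Of 22 genes of the anaphase-promoting complex, the spindle checkpoint and sister separation, 11 were higher and 6 lower in cKO RS (median 0.32; 38.4% and 34.3% of all genes), and under library size only 19 were higher and 0 lower (58.5% and 18.5%). The APC/C inhibitor Fbxo5 (1.79, adjusted p = 0.0018) and the subunit Anapc1 (1.40, adjusted p = 9e-06) were higher. Fbxo5 was low in level, at 0.645 to 0.895 CPM in CTRL RS and 1.58 to 3.06 in cKO RS. Arpp19 (-0.66, adjusted p = 0.0024) and Mastl (-0.57, adjusted p = 0.019), which together hold a phosphatase opposed to CDK1 in check, were lower. In Spc 2 of the 22 were higher and 1 lower (14.0% and 14.1% of all genes), and in CBs 3 of 21 tested were higher and 2 lower (18.1% and 18.4%), among them Bub1 (-0.99, adjusted p = 0.0030) and Bub1b (1.09, adjusted p = 0.0025). Library size alone moved the median of all genes in RS up by 0.62, and Hspa2 (0.17), Incenp (0.43) and Mastl (0.06) then had values above 0, while Wee1 (-0.30) and Arpp19 (-0.04) did not.

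From Spc to RS in CTRL, 9 of the 16 CDK partners, 8 of the 12 Aurora and Polo partners and 16 of the 22 were lower (39.7% of all genes), and 3, 2 and 5 were higher (36.2%), with medians of -0.78, -0.92 and -0.78 against -0.08 for all genes. Cks2, a small CDK-binding protein, fell by 2.99 (adjusted p = 2.4e-05). In cKO, 7 of 16, 6 of 12 and 13 of 22 were lower (26.4% of all genes), and 4, 0 and 2 were higher (18.9%), with medians of -0.22, -0.24 and -0.42, and Cks2 fell by 2.43 (adjusted p = 0.00015). The interaction was more positive in 6, 5 and 5 genes and more negative in 4, 1 and 4 (19.0% and 24.1% of all genes). Under library size only, 2, 0 and 1 were higher and 13, 10 and 17 lower from Spc to RS in CTRL (25.3% and 53.3% of all genes), and 4, 1 and 3 were higher and 7, 5 and 10 lower in cKO (25.3% and 20.7%). The interaction was then more positive in 13, 11 and 18 and more negative in 0 (44.5% and 3.00% of all genes). With edgeR 1 of the 12 Aurora and Polo partners was higher in cKO at an unadjusted p under 0.05, and DESeq2 gave 2.

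The deposited transcript tables list 36 annotated transcripts of the 10 genes, counted so that pairs that fit more than 1 transcript are split evenly. In cKO RS 17 of the 36 were higher and 8 lower (38.9% and 36.0% of 57133 transcripts), in cKO Spc 3 were higher and 6 lower of 36 (16.1% and 12.5% of 57631), and in CBs 0 were higher and 3 lower of 23 tested (17.8% and 18.1% of 30623; 0 and 3 at an unadjusted p under 0.05, edgeR). Both coding transcripts of Cdk2 were higher in RS, at 1.55 (ENSMUST00000026415) and 1.54 (ENSMUST00000026416), each with about equal shares of the gene's count (49.8% and 50.2%). The 3 lower transcripts in CBs were the 3 protein-coding ones of Ccnb1 (-0.74 to -0.83). A single member transcript has the nonsense-mediated decay biotype, ENSMUST00000147380 of Ccna2, and it was 2.68 ± 0.59 CPM in CTRL RS and 3.57 ± 0.38 in cKO RS (SD, n = 3 each), which did not pass (log2 fold change 0.41, SE 0.17, adjusted p = 0.063). In Spc it was 2.61 ± 0.54 and 2.91 ± 0.38 CPM (0.16, SE 0.18, adjusted p = 0.54). A retained-intron transcript of Ccna2 (ENSMUST00000145309) was higher in RS at 0.65 (adjusted p = 0.037), from 0.634 CPM in CTRL to 0.992 in cKO. A processed transcript of Ccna2 (ENSMUST00000156575) was also higher in RS, at 0.55 (adjusted p = 0.030), from 1.16 CPM in CTRL to 1.70 in cKO. Retained-intron transcripts of Ccnb1 were lower in RS, at -0.27, -0.32 and -0.41 (adjusted p = 0.040, 0.021 and 0.024), and ENSMUST00000128279 was not called (-0.32, adjusted p = 0.069). Those of Cdk1 and Aurka were higher in RS, so each followed the direction of its gene. The equal sharing of reads limits how far transcripts of 1 gene can differ in these counts, so transcripts of 1 gene are not separate results. In RS the higher ones came from Cdk1, Aurka, Cdk2, Ccna2 and Cdc25c, and the lower ones from Ccnb1, Plk1 and Ccnb2.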

How the data were processed

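Per the submitters' processing notes, the authors used cutadapt 2.8, STAR 2.7.1a, featureCounts 2.0.1 and the GRCm38 build; the study's methods name other versions of STAR and featureCounts for these libraries. The authors counted genes and 1146 transposable element subfamilies with TEtranscripts, giving whole-number counts, and transcripts with featureCounts, giving expected counts because shared reads are divided. The deposited tables were used as they are, and expected counts were rounded. Columns were matched to samples by name. In the CB table the numbers in the names are not those of the sample titles, so CB libraries were matched to groups only and are given no replicate number here.

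Genes with 10 counts in at least 3 libraries (transcripts 20) were compared with edgeR 4.0.16 in R 4.3.3 (two-sided quasi-likelihood test with TMM, p-values adjusted by Benjamini-Hochberg over all features tested), each fit holding only the groups compared, so a fold change can differ a little from the ratio of the CPM shown on 1 common scale. The interaction was fitted over 12 libraries. The scripts were tested on simulated counts first. DESeq2 1.42.0, library size only, no filter, elements included, transcript sums, a replicate block and each library left out were the alternatives. All 10 members are named in every comparison, and of each partner list at most the 2 lowest and 2 highest called genes. Members and lists (partners; spermatocyte, spermatid, spermatogonial, macrophage, Leydig, Sertoli and erythroid markers) were chosen with earlier results of these data known. Transcripts were assigned to genes, and genes to positions, with GENCODE vM21, which held 98.0% of the 110379 transcripts. Small RNA libraries were not used here.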

Additional observations from a re-analysis of the deposited data

Results flagged for a closer look

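In 3 members the genotype effect differed between RS and Spc by the test of the interaction over the 12 libraries (edgeR, adjusted p of at most 0.05). The interaction was 0.98 for Cdk2 (adjusted p = 0.00074), 0.37 for Aurka (adjusted p = 0.014) and -0.36 for Ccnb2 (adjusted p = 0.021), and the last turned to 0.35 under library size only.

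In 2 members 1 CTRL CB library, that of 6030071 gene counts, stood apart from the other 3. Ccna2 was 13.2 CPM there and 7.03 to 7.77 CPM in the others, a gap of 0.879 of the group's range, and Cdk2 was 38.2 CPM against 29.7 to 30.9, a gap of 0.864. Chance alone puts about 5% of such groups past the limit, and 10 genes were looked at. Without that library neither gene was called in CBs, as with it. As each CB library was left out, the log2 fold change of cKO over CTRL ran from -0.95 to -0.16 for Ccna2 (-0.52 with all). For Cdk2 it ran from -0.11 to 0.31 (0.15 with all).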

How the results depend on the processing

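Of 790 member values recomputed under alternatives, 713 kept their direction and their side of the threshold, 36 lost and 19 gained a call, and 22 changed sign. Library size only gave 12 of the sign changes. In RS these were Ccna1 (0.45), Ccnb1 (0.22), Ccnb2 (0.12), Plk1 (0.062) and Aurkc (0.11). From Spc to RS in CTRL they were Ccna1 (-0.26) and Ccna2 (-0.27). For the interaction they were Ccnb1 (0.60), Ccnb2 (0.35), Cdc25c (0.26), Plk1 (0.63) and Aurkc (0.33), and 8 members were then called, against 3 under TMM. Its own construction shows the cause, a shift of all genes by 0.62 in RS, -0.46 from Spc to RS in CTRL and 0.71 for the interaction. Over all genes, calls of higher and lower were then 10232 and 3238 in RS (6713 and 6005 under TMM), 1587 and 2573 in CBs (2547 and 2589), 4318 and 9082 from Spc to RS in CTRL (6169 and 6775), 4480 and 3670 in cKO (3354 and 4684) and 8087 and 545 for the interaction (3459 and 4375).

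With each library left out, the called members numbered 0 to 4 in Spc (4 with all libraries), 7 to 9 in RS (9), 1 to 2 in CBs (1), 6 to 7 from Spc to RS in CTRL (7), 9 in each fit in cKO (9, though without cKO Spc library 1 Aurkc lost its call and Ccna2 gained one) and 2 to 4 for the interaction (3). The values that passed 0 in such fits were Cdk1 in Spc (-0.12 to 0.087), Cdk2 (-0.11 to 0.31) and Cdc25c (-0.49 to 0.0055) in CBs, and the interactions of Ccna1 (-0.017 to 0.062), Ccna2 (-0.077 to 0.23), Ccnb1 (-0.22 to 0.024) and Plk1 (-0.17 to 0.030), none of which was called with all libraries. Over all genes, calls in Spc (2431 higher and 2448 lower) dropped to 1289 and 753 without cKO Spc library 1, 1441 and 1265 without cKO Spc library 3 and 1111 and 947 without CTRL Spc library 3. Ccna1 in RS was also not called with no filter, with elements included or with transcript sums, which in RS also carry another trimming tag.

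Correlations of the deviations of same-numbered libraries were 0.18, -0.22 and 0.36 in Spc, -0.12, -0.18 and 0.09 in RS and -0.30 to -0.07 between RS and Spc in CTRL. In each of these the highest value was that of an unlike-numbered pair (0.415, 0.219 and 0.522). Between RS and Spc in cKO the same-numbered values were -0.07, 0.61 and 0.34, and unlike numbers gave -0.515 to 0.233. The cKO stages may thus be paired by number, and the main fits took no account of it. With the number as a replicate block, called members were 3 in Spc, 8 in RS, 6 and 9 from Spc to RS in CTRL and cKO and 4 for the interaction. Calls were lost by Cdc25c in Spc (0.71, adjusted p = 0.068), Ccna1 in RS (-0.17, adjusted p = 0.069) and Aurkc from Spc to RS in CTRL (-0.38, adjusted p = 0.050). Cdk1 gained a call for the interaction (0.38, adjusted p = 0.044). Over all genes, calls of higher and lower were then 1768 and 2000 in Spc (2431 and 2448 without the block) and 6304 and 5790 in RS (6713 and 6005). From Spc to RS they were 5730 and 6256 in CTRL (6169 and 6775) and 4527 and 5114 in cKO (3354 and 4684), and for the interaction 3206 and 4257 (3459 and 4375). Called member transcripts were 4 in Spc (9 without it) and 17 in RS (25 without it), and calls over all transcripts were not counted with the block. No paired analysis was made for CBs. The CB column names carry numbers that are not those of the sample titles, and a pairing by them was not tried. Alternatives chosen after seeing the data were transcript sums for the stages and the interaction, which called 7 members in CTRL, 10 in cKO and 3 for the interaction, and a CB comparison that left out the 2 CTRL CB libraries named in another style and called 1 member, as before, with 1333 higher and 1731 lower over all genes. The depth of the CB libraries limits their comparison, with 14 to 97 counts per library for Ccna2.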

Other observations

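For each member, the gene outside the set whose log2 CPM followed it most closely over the 12 Spc and RS libraries was named, among 18161 genes, as a description. These libraries fall into 4 groups, so the coefficients hold differences between groups as well as between libraries of 1 group, and each gene is the closest of many. Cdk2 was most like Mllt10 (Pearson's r = 0.998), Cdc25c like Apol7c (0.996), Ccnb2 like Pphln1 (0.995), Cdk1 like Ndc80, a kinetochore gene (0.992), Plk1 like Kif16b (0.984), Ccnb1 like Tbc1d25 (0.981), Ccna1 like Efhd2 (0.977), Aurkc like Vit (0.959), Aurka like Cd79b, a B cell receptor gene (0.953), and Ccna2 like Cables1 (0.904).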
